A study of Mus musculus with 18 samples.

Results

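Genes of mitosis and the spindle were read on 18 mouse microarrays: 47 genes were listed by symbol, and 45 of them were matched to a probe, out of 19084 genes measured. A member was taken from the platform's gene symbol, and where it had several probes the one with the highest mean over the 18 arrays stood for it. Ccnb1 and Cdc20 were not analysed here. Another 3 members, Cdk1, Nuf2 and Kif20a, had probes below an intensity of 30, taken as background, on every array, and Nusap1 did not exceed that limit on all arrays of any group. The other 41 members were above background in at least 1 group.

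In mitosis the duplicated chromosomes are compacted by condensin, caught at their centromeres by kinetochores and pulled apart by the microtubules of the spindle, after which the cell divides in cytokinesis. Cyclins with their kinase start the process, and a checkpoint holds back the separation of sister chromatids until every kinetochore is attached. Most of these genes are transcribed late in the cell cycle, so in a mixed population their RNA is known to track how many cells are dividing. In bulk RNA, fewer dividing cells and less RNA per dividing cell cannot be told apart.

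The arrays fell into 6 groups of 3, all from C57Bl/6 mice, and addressed how expression in basophils differs from that in mast cells, and what in basophils depends on the myeloid transcription factor Cebpa. Fresh basophils were isolated from marrow taken 3 days after injection of interleukin-3 (IL-3) in an immune complex with its antibody, which expands basophils. Mast cells were grown out of marrow during 4 weeks in medium with 20 ng/ml IL-3. The remaining 4 groups were isolated basophils held in culture for 5 days with 20 ng/ml IL-3, of genotype Cebpa +/+ RosaYFP/creER (wild type) or Cebpa f/f RosaYFP/creER (floxed), each without or with 100 nM 4-hydroxytamoxifen, the drug that activates creER. All 4 cultured basophil groups, the wild type included, thus carried the recombinase and the reporter. The sources used here do not give what drives creER or how the basophils were isolated. Nothing in the labels ties a replicate to its own mouse or culture, so the p-values below cover the spread between these arrays, which may be technical.

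Promoters of the members are printed because the members moved together, and the stretch before the start of such genes often holds a cell cycle genes homology region (CHR) and CCAAT boxes. RefSeq windows of 250 bases before to 50 after the gene start (GRCm38.p6) were matched by symbol for 39 of the 47 members, in 41 windows. The words TTTGAA or TTCGAA, taken as the CHR, and CCAAT were searched on both strands, and a CHR word and a CCAAT word can share at most 1 letter. Below, each line runs 5′ to 3′ on the gene's own strand from 100 bases before to 20 after the start, and capitals mark the words found, on either strand. The first 6 are the genes with both words in the stretch that differed most between fresh and cultured wild type basophils, and Kif23 and Pttg1 are shown because they departed from the other members.
Ttk (chr9:83834589-83834708, plus strand): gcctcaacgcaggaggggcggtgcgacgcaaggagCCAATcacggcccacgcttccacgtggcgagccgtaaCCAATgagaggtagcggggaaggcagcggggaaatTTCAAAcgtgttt
Kif22 (chr7:127042401-127042520, minus strand): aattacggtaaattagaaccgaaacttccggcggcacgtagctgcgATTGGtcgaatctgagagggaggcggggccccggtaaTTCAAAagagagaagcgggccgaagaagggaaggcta
Ccnb2 (chr9:70421535-70421654, minus strand): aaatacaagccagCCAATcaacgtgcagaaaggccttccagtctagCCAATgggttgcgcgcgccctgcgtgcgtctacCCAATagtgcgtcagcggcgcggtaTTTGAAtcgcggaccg
Kif11 (chr19:37376282-37376401, plus strand): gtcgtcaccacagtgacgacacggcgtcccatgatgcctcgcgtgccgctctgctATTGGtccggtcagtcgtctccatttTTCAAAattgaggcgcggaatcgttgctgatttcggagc
Bub1 (chr2:127831840-127831959, minus strand): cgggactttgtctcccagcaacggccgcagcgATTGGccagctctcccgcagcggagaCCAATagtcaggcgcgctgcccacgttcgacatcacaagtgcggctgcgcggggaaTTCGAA
Cdc25b (chr2:131186848-131186967, plus strand): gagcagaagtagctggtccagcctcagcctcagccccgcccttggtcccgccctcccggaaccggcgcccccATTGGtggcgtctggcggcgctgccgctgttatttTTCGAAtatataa
Kif23 (chr9:61946780-61946899, minus strand): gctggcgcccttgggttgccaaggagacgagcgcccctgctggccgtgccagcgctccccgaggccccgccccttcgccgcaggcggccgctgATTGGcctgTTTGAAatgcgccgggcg
Pttg1 (chr11:43425962-43426081, minus strand): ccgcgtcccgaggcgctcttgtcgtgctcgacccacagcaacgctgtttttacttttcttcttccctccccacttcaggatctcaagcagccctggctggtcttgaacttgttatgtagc

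In these lines TTTGAA read on the other strand appears as TTCAAA, and CCAAT as ATTGG. A CHR word was found in 32 of the 41 member windows (78.0%), against 19.2% of all 32851 windows in the RefSeq table. CCAAT was found in 32 member windows (78.0%), against 37.4% of all windows. Both words were found in 29 member windows (70.7%), against 7.52% of all windows, and a CHR word between 40 bases before and 50 after the start in 29 (70.7%) against 4.74%. The windows of Birc5, Mad2l1, Ncaph, Nuf2, Nusap1 and Pttg1 held neither word. These matches describe letters in the window and not binding. In fresh against untreated wild type basophils, the log2 fold changes of members with neither word ran from -1.03 (Pttg1) to 2.49 (Ncaph). Kif23, with both words, gave 0.29. Whether the words bear on the changes was not tested. The members with no window were Aurkb, Ccna2, Cdc25c, Foxm1, Incenp, Kif20a, Smc4 and Tpx2.

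The arrays had median intensities of 24 to 42, and between 47.3% and 54.8% of 26423 probes lay above 30. Levels given below are normalized intensities (quantile normalized over the 18 arrays), and fold changes are differences of log2(intensity + 16) with their SE, which understates the change of dim genes. Adjusted p-values are limma's, with Benjamini-Hochberg adjustment over all probes and a threshold of 0.05. Cebpa read 2232.3, 2392.8 and 2105.4 in fresh basophils, 56.8, 63.8 and 45.7 in mast cells, and 2280.2, 2602.3 and 2225.9 in untreated wild type basophils. It read 2972.6, 2821.8 and 2539.3 in treated wild type, 1055.2, 935.2 and 958.8 in untreated floxed, and 69.1, 69.4 and 57.8 in treated floxed basophils. Untreated floxed cells thus lay below all wild type arrays without any drug. The sources used here do not place this probe inside or outside the deleted stretch. Of 10 basophil markers, all 10 were above background on every fresh basophil array and 8 on every mast cell array, where Il4 and Itga2 were at background. Of 10 mast cell markers, 8 were above background on every mast cell array and 7 on every fresh basophil array. Cpa3 and Fcer1a are on both lists, and Cpa3 averaged between 63350 and 65390 in the 6 groups, near the highest values of the arrays. The probe of Tpsab1, a mast cell tryptase, was at background in all groups.

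Across the 6 groups the members followed 1 order. Fresh basophils had the highest mean in 38 of the 41 members above background, the exceptions being Ube2c, Pttg1 and Kif23, and mast cells were second in 35. A cultured wild type group was lowest in 39 of the 41. Both floxed groups lay above both wild type groups in 34, and the full order of fresh basophils, mast cells, floxed and wild type cultured basophils held in 32. The 9 members outside that order were Cdc25b, Ube2c, Pttg1, Cenpf, Incenp, Cdca8, Kif23, Anln and Smc4. Cenpf passed the background limit only in fresh basophils, so its highest rank there was fixed by that limit. Ncapg was at background in all 4 cultured basophil groups, so its order among them cannot be read. Both are part of the 41 and of these counts. The median of log2(intensity + 16) over those 41 members was 9.69 to 9.72 on the fresh basophil arrays, 8.63 to 8.70 in mast cells and 7.26 to 7.36 in untreated wild type cells. It was 7.33 to 7.49 in treated wild type, 8.05 to 8.18 in untreated floxed and 7.65 to 7.83 in treated floxed cells. Over all 12209 genes above background in a group, the same median stayed between 7.88 and 7.91 on every array.

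**Figure D1:**
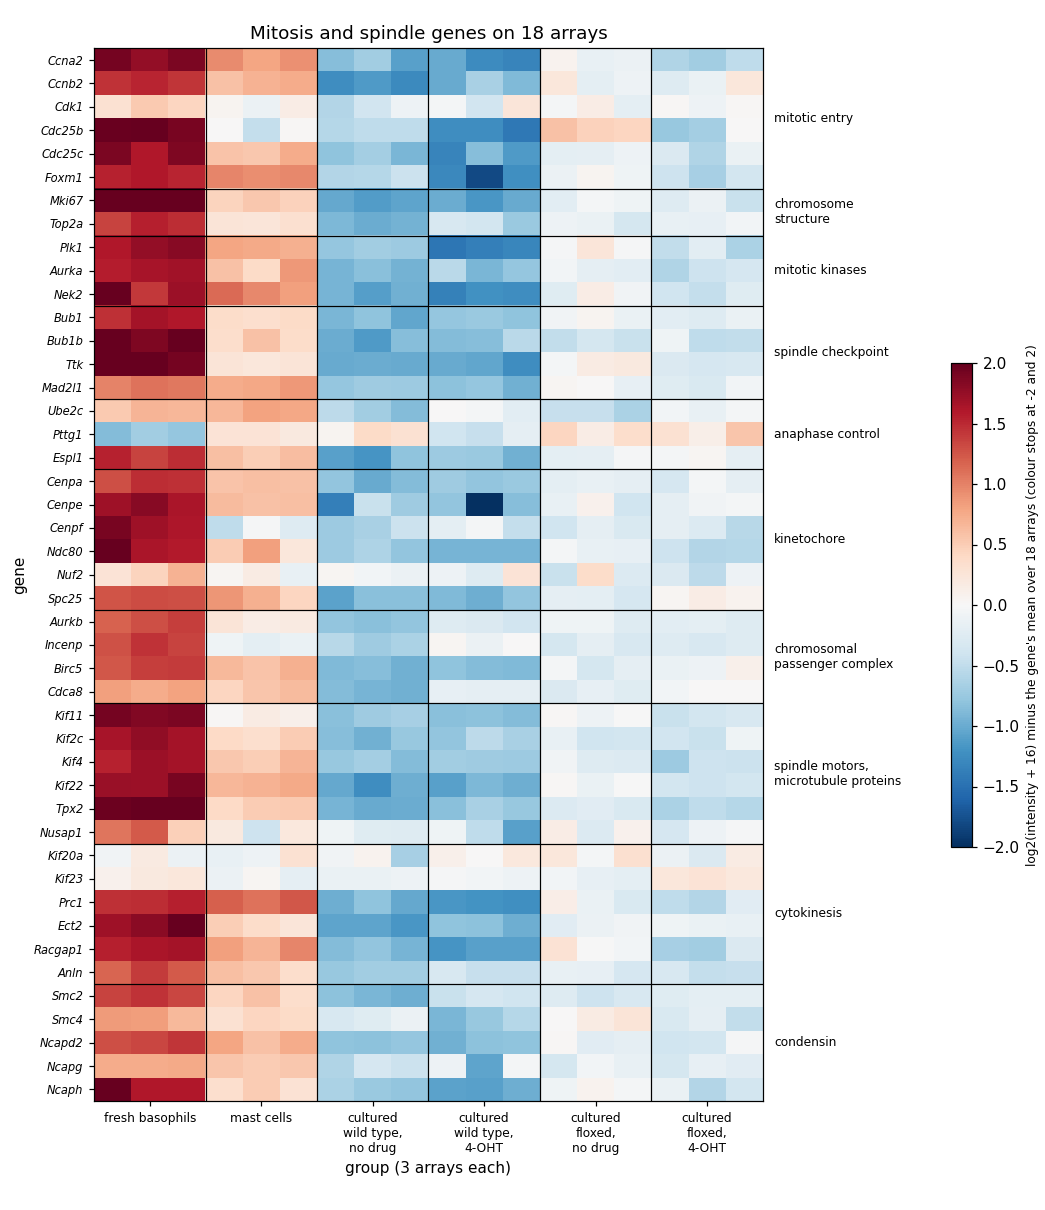
Heat map of the 45 measured members (rows, by role) on 18 arrays (columns, 3 for each group). Colour is log2(intensity + 16) minus the gene's mean over the 18 arrays and stops at -2 and 2. Most rows are darkest red in fresh basophils, pale red in mast cells and blue in the cultured wild type groups, while Pttg1 runs the other way in fresh basophils and Kif23 changes little.

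Among the genes of mitotic entry, Ccna2 encodes cyclin A2, which acts in DNA synthesis and early mitosis. Its level was 4673, 4179 and 4595 on the fresh basophil arrays, 2371, 2132 and 2317 in mast cells, and 671, 755 and 573 in untreated wild type cells. In treated wild type it was 603, 505 and 482, in untreated floxed 1295, 1112 and 1133, and in treated floxed cells 808, 749 and 863. The 2 wild type groups overlapped, and fresh basophils stood above every other array. Cdc25b, a phosphatase that switches on the mitotic kinase, read 757, 779 and 720 in fresh basophils, 183, 125 and 185 in mast cells, and 117, 123 and 122 in untreated wild type cells. The drug groups read 67.4, 67.6 and 57.4 in wild type and 99.9, 107 and 181 in floxed cells, against 280, 254 and 250 in untreated floxed cells. Here untreated floxed cells exceeded mast cells on every array, unlike the usual order. Foxm1, a transcription factor of late cell cycle genes, read 626, 655 and 618 in fresh basophils, 418, 408 and 417 in mast cells, and 131, 134 and 148 in untreated wild type cells. Treated wild type cells gave 74.4, 47.2 and 78.8, untreated floxed 189, 215 and 192, and treated floxed 150, 124 and 155. Treated wild type cells were the lowest for Foxm1, with no overlap with any other group.

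The proteins of chromosome structure include Mki67, the antigen Ki-67 that coats mitotic chromosomes and is used as a marker of proliferation. Mki67 read 5081, 5105 and 5259 in fresh basophils, 1718, 1818 and 1726 in mast cells, and 605, 568 and 595 in untreated wild type cells. Treated wild type cells gave 620, 547 and 616, untreated floxed 1080, 1224 and 1179, and treated floxed 1039, 1148 and 920. Neither genotype separated by drug, and every floxed array lay above every wild type array. Top2a, the topoisomerase that untangles sister DNA, read 3241, 3753 and 3563 in fresh basophils, 1515, 1497 and 1590 in mast cells, and 674, 630 and 652 in untreated wild type cells. Its treated wild type arrays read 1009, 984 and 755, untreated floxed 1186, 1148 and 990, and treated floxed 1146, 1127 and 1219. Untreated floxed overlapped treated wild type cells for Top2a.

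Of the mitotic kinases, Plk1 acts from mitotic entry to cytokinesis and Aurka at centrosomes and spindle poles. Plk1 read 3008, 3350 and 3482 in fresh basophils, 1713, 1670 and 1612 in mast cells, and 569, 596 and 588 in untreated wild type cells. It read 350, 368 and 389 in treated wild type, 966, 1163 and 960 in untreated floxed, and 695, 841 and 625 in treated floxed cells. No 2 groups overlapped for Plk1. Aurka gave 757, 807 and 820 in fresh basophils, 376, 324 and 459 in mast cells, and 122, 130 and 120 in untreated wild type cells. Treated wild type arrays gave 164, 123 and 137, untreated floxed 235, 215 and 211, and treated floxed 157, 181 and 191. With the drug the 2 genotypes overlapped for Aurka. The third kinase, Nek2, which separates centrosomes, averaged 457.4 ± 99.9 (SD, n = 3) in fresh basophils and between 42.74 and 120.9 in the cultured basophil groups.

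The spindle checkpoint members read as follows. Bub1b, the checkpoint kinase relative BubR1, was at 1199, 865 and 1015 in fresh basophils, 292, 345 and 295 in mast cells, and 105, 94.3 and 117 in untreated wild type cells. It was at 116, 118 and 149 in treated wild type, 156, 172 and 161 in untreated floxed, and 212, 154 and 156 in treated floxed cells. Mad2l1, which inhibits the anaphase promoting complex, was at 1478, 1573 and 1544 in fresh basophils, 1236, 1268 and 1359 in mast cells, and 423, 443 and 437 in untreated wild type cells. Mast cells lay below fresh basophils without overlap for both genes, by 1.19-fold for Mad2l1 and 3.17-fold for Bub1b. Mad2l1 gave 409, 422 and 369 in treated wild type, 755, 736 and 651 in untreated floxed, and 616, 593 and 707 in treated floxed cells. The kinases Bub1 and Ttk had fresh basophil means of 443.5 ± 31.2 and 747.5 ± 77.6 (SD, n = 3), against 65.37 ± 6.42 and 75.3 ± 0.594 in untreated wild type cells.

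The anaphase genes departed most from the common order. Pttg1 encodes securin, the inhibitor of separase, and was the only member with its lowest level in fresh basophils, at 1150, 1289 and 1224. It read 2538, 2539 and 2402 in mast cells, 2187, 2761 and 2597 in untreated wild type, and 1596, 1525 and 1856 in treated wild type cells. Floxed cells gave 2836, 2332 and 2699 without and 2594, 2282 and 3101 with the drug. Mast cells, untreated wild type and both floxed groups overlapped for Pttg1. Ube2c, the ubiquitin-conjugating enzyme of the anaphase promoting complex, read 305, 340 and 336 in fresh basophils, 335, 374 and 363 in mast cells, and 139, 121 and 106 in untreated wild type cells. Its drug groups read 207, 200 and 175 in wild type and 199, 185 and 200 in floxed cells, against 145, 145 and 128 in untreated floxed cells. For Ube2c the cultured cells thus divided by drug and not by genotype. Separase itself, Espl1, kept to the common order, with 395.8 ± 25.9 (SD, n = 3) in fresh basophils and 58.06 ± 10.1 in untreated wild type cells.

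At the kinetochore, Cenpa is the histone H3 variant that marks centromeres. Cenpa read 15992, 18175 and 17987 in fresh basophils, 9722, 9909 and 9833 in mast cells, and 3787, 3231 and 3566 in untreated wild type cells. Treated wild type arrays read 4001, 3758 and 3901, untreated floxed 5698, 5889 and 5730, and treated floxed 5172, 6327 and 5730. Every floxed array stood above every wild type array for Cenpa. Spc25, a subunit of the Ndc80 complex that binds microtubules, read 1556, 1613 and 1592 in fresh basophils, 1196, 1057 and 865 in mast cells, and 297, 351 and 351 in untreated wild type cells. It read 339, 317 and 364 in treated wild type, 563, 555 and 505 in untreated floxed, and 659, 713 and 674 in treated floxed cells. Treated floxed exceeded untreated floxed cells on all arrays for Spc25. Cenpe, a kinetochore motor, read 339, 371 and 324 in fresh basophils, 154, 149 and 150 in mast cells, and 26.3, 64.2 and 51.3 in untreated wild type cells. Its arrays read 47.2, 10.7 and 44.7 in treated wild type, 82.5, 101 and 67.1 in untreated floxed, and 81, 88.9 and 91 in treated floxed cells. The wild type levels of Cenpe straddled the background limit. Cenpf, an outer kinetochore protein, was above background in fresh basophils only, at 81.8, 69.4 and 64.7, and between -0.0556 and 9.83 on all other arrays.

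In the chromosomal passenger complex, which corrects faulty attachments and guides cytokinesis, Incenp is the scaffold and Birc5 (survivin) a targeting subunit. Incenp read 1780, 2011 and 1885 in fresh basophils, 686, 636 and 662 in mast cells, and 489, 436 and 462 in untreated wild type cells. It read 748, 673 and 734 in treated wild type, 565, 644 and 578 in untreated floxed, and 605, 579 and 604 in treated floxed cells. Treated wild type was the highest of the cultured basophil groups for Incenp, above every floxed array. Birc5 read 1446, 1594 and 1606 in fresh basophils, 957, 906 and 998 in mast cells, and 321, 326 and 300 in untreated wild type cells. Treated wild type cells gave 338, 324 and 318, untreated floxed 587, 468 and 531, and treated floxed 549, 560 and 645. Birc5 kept to the common order, with both floxed groups above both wild type groups. The kinase Aurkb and the subunit Cdca8 (borealin) averaged 840.3 ± 61.4 and 596.8 ± 17.7 (SD, n = 3) in fresh basophils and 184.8 ± 3.50 and 171.9 ± 5.52 in untreated wild type cells.

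Among spindle motors, Kif22 and Kif4 are kinesins carried on chromosome arms. Kif22 read 5440, 5391 and 6142 in fresh basophils, 2597, 2650 and 2751 in mast cells, and 796, 676 and 823 in untreated wild type cells. It read 758, 863 and 823 in treated wild type, 1650, 1476 and 1622 in untreated floxed, and 1253, 1222 and 1258 in treated floxed cells. The drug groups separated in floxed cells and overlapped in wild type cells. Kif4 read 634, 713 and 693 in fresh basophils, 309, 297 and 340 in mast cells, and 116, 124 and 106 in untreated wild type cells. Treated wild type gave 122, 120 and 119, untreated floxed 196, 170 and 169, and treated floxed 119, 152 and 150. With the drug, Kif4 overlapped between the genotypes. The bipolar motor Kif11, the depolymerase Kif2c and the Aurora A activator Tpx2 averaged between 419.7 and 487.7 in fresh basophils and between 44.19 and 60.57 in untreated wild type cells.

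The cytokinesis genes held the second exception. Kif23, the motor of centralspindlin, read 3070, 3291 and 3368 in fresh basophils, 2649, 2942 and 2551 in mast cells, and 2626, 2620 and 2682 in untreated wild type cells. It read 2816, 2769 and 2667 in treated wild type, 2762, 2576 and 2518 in untreated floxed, and 3379, 3474 and 3327 in treated floxed cells. Treated floxed cells overlapped fresh basophils at the top, and the other 4 groups overlapped each other. Prc1, which bundles microtubules of the midzone, read 2131, 2143 and 2276 in fresh basophils, 1760, 1634 and 1816 in mast cells, and 377, 430 and 367 in untreated wild type cells. It read 331, 325 and 317 in treated wild type, 840, 690 and 613 in untreated floxed, and 528, 502 and 646 in treated floxed cells. Prc1 thus kept the common order, which Kif23 did not. Anln, anillin of the contractile ring, read 474, 564 and 500 in fresh basophils, 316, 301 and 265 in mast cells, and 114, 119 and 120 in untreated wild type cells. It read 159, 144 and 144 in treated wild type, 181, 179 and 158 in untreated floxed, and 160, 142 and 144 in treated floxed cells. The treated genotypes overlapped for Anln. Kif20a was between -3 and 9.89 on all 18 arrays, so nothing can be read from its probe. Ect2, which activates the small GTPase RhoA, and Racgap1, the partner of Kif23, averaged 581.7 ± 78.7 and 1461 ± 60.6 (SD, n = 3) in fresh basophils and 60.97 ± 3.10 and 248.9 ± 13.1 in untreated wild type cells.

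Of the condensin subunits, Smc4 is part of the ATPase core and Ncapd2 a regulatory subunit. Smc4 read 10626, 10458 and 9234 in fresh basophils, 7279, 7920 and 7698 in mast cells, and 4707, 4962 and 5406 in untreated wild type cells. It read 3104, 3476 and 3945 in treated wild type, 5908, 6617 and 7038 in untreated floxed, and 4759, 5178 and 4148 in treated floxed cells. In each genotype every treated array lay below every untreated one, and only untreated wild type and treated floxed cells overlapped. Ncapd2 read 2969, 3076 and 3288 in fresh basophils, 2087, 1812 and 2023 in mast cells, and 682, 679 and 697 in untreated wild type cells. Treated wild type gave 613, 673 and 686, untreated floxed 1226, 1032 and 1059, and treated floxed 912, 927 and 1190. For Ncapd2 the drug groups of each genotype overlapped. Ncapg was near background in all cultured basophil groups, with means of 16.98 to 23.8.

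**Figure D2:**
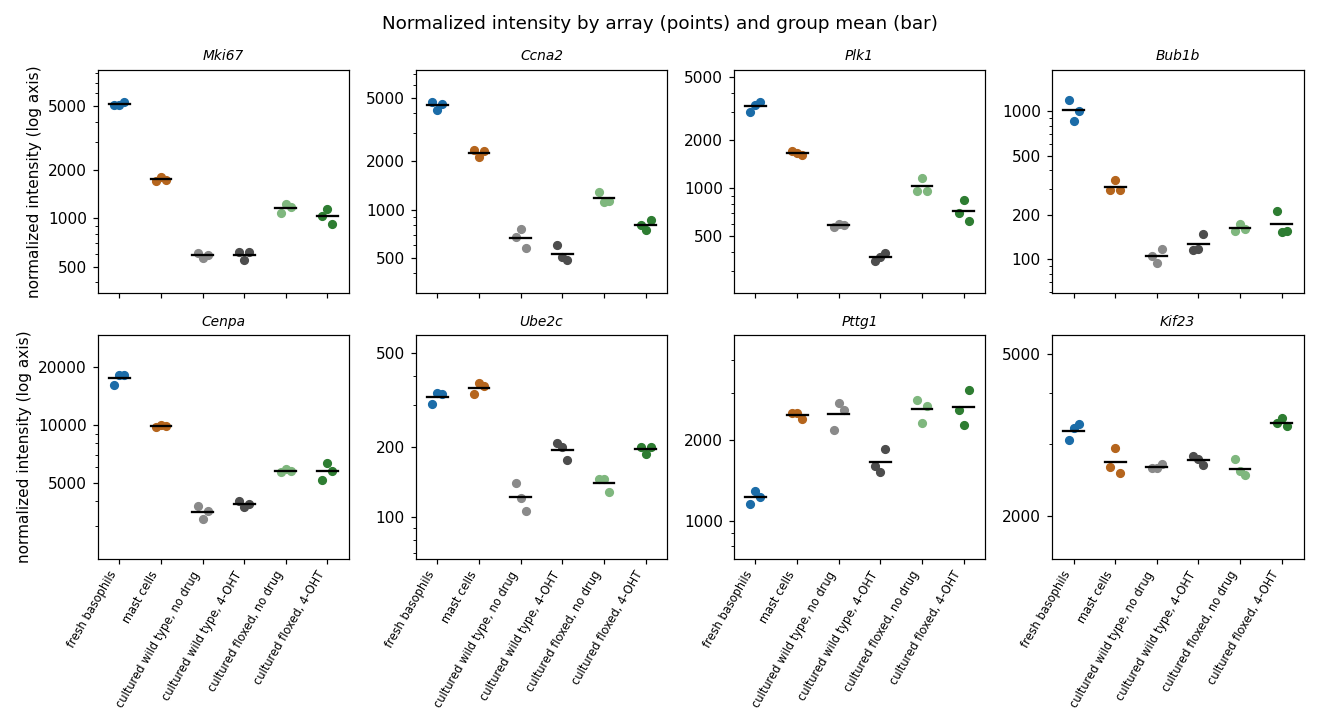
Normalized intensity (log axis) of 8 members by array (points) and group mean (bar) in the 6 groups. Mki67, Ccna2, Plk1, Bub1b and Cenpa step down from fresh basophils to mast cells to the cultured groups, with floxed above wild type; Ube2c divides the cultured groups by drug, Pttg1 is lowest in fresh basophils, and Kif23 is nearly level apart from treated floxed cells and fresh basophils.

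Fresh basophils were set against untreated wild type basophils after 5 days of culture. The injection of IL-3 complex is recorded only for the fresh basophils, and RosaYFP/creER only for the cultured ones. Culture cannot be told apart from these differences. Of the 45 members, 43 were higher in fresh basophils and 1, Pttg1, was lower, beside 20.0% of all genes higher and 19.6% lower. The median log2 fold change of the members was 2.41, against -0.01 over all genes, and 40 members were at least 2-fold higher. Mki67 and Bub1b were each 8.53-fold higher (3.09 ± 0.088 and 3.09 ± 0.14, adjusted p = 4.97e-14 and 1.28e-11). Other checkpoint and spindle members were close to that size, with 3.06 ± 0.091 for Ttk, 3.06 ± 0.084 for Tpx2, 2.95 ± 0.097 for Ect2 and 2.86 ± 0.09 for Kif22. The smallest called changes above background were those of Kif23 (0.29 ± 0.076, adjusted p = 0.00545) and Smc4 (1.01 ± 0.11, adjusted p = 1e-06). Securin went the other way: Pttg1 was 2.04-fold lower in fresh basophils (-1.03 ± 0.12, adjusted p = 2.53e-06), and its other probe gave -1.87 (adjusted p = 2.24e-08). Its target separase, Espl1, was higher (2.48 ± 0.10, adjusted p = 6.59e-12). Cenpf, at background in the cultured cells, was at least 2.4-fold higher, Ncapg at least 1.99-fold and Nusap1 at least 1.12-fold. Kif20a (0.22 ± 0.18) did not pass the test, and Cdk1 and Nuf2, which did, were at background on both sides. The call of Nuf2 was lost in 5 of 6 runs that left out an array (untreated wild type replicates 1, 2 and 3, fresh basophil replicates 2 and 3), with 0.40 to 0.55.

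Markers of other cell types differed as well. A list's sum follows its brightest probes, and the counts below stand beside 20.0% of all genes higher in fresh basophils and 19.6% lower. The summed level of 10 neutrophil precursor markers was 107000 to 112000 on the fresh basophil arrays, where 9 of the 10 were above background and S100a8 was not, against 20400 to 21400 in untreated wild type cells. The sum of 8 erythroid precursor markers was 2780 to 2800 in fresh basophils against 1310 to 1500, with Epor, Alas2, Slc4a1 and Rhag at background in the cultured cells. Of these 8, 5 were higher and 2 lower. Hbb-b1 gave 1617 ± 38.3 against 154.3 ± 2.21, while Tfrc gave 306.4 ± 26.7 against 780 ± 66.4 (SD, n = 3). For 7 macrophage markers the sums were 29900 to 31300 against 10100 to 11200, and 5 were higher and 2 lower. Vcam1 gave 14320 ± 340 against 840.1 ± 56.3, while Adgre1 gave 1154 ± 29.4 against 3382 ± 150 (SD, n = 3). For 4 eosinophil markers the sums were 45800 to 47400 against 4210 to 4340, and 4 were higher and 0 lower. The 8 stem and progenitor markers differed less, at 4220 to 4470 against 3770 to 4040, and the 8 early B cell markers stood at 1620 to 1790 against 725 to 807, with Rag1, Ebf1 and Pax5 at background in both. Of the neutrophil precursor markers 8 were higher and 1 lower, of the stem and progenitor markers 2 and 2, and of the early B cell markers 3 and 0. Other lists went the other way. Of 10 mast cell markers, 6 were lower and 1 higher in fresh than in cultured cells (median -2.26), with Cma1 at -6.43 ± 0.08, Mcpt2 at -4.23 ± 0.17, and Kit at 280 ± 19.9 against 2225 ± 120 (SD, n = 3). Of 4 megakaryocyte markers, 3 were lower and 0 higher, with Pf4 at -2.85 ± 0.13 and Itga2b at background in both groups. Whether other cells or the basophils themselves carried these markers, and their part in the members' levels, was not tested.

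Fresh basophils were also set against mast cells, the comparison of cell types in the study, in which cell type coincides with culture. Of the 45 members, 40 were higher in basophils and 1 lower, beside 20.7% and 24.7% of all genes. The median log2 fold change was 0.93, against -0.04 over all genes, and 20 members were at least 2-fold higher. Cdc25b was 4.32-fold higher (2.11 ± 0.17, adjusted p = 1.27e-08), and Cenpf, at background in mast cells, at least 2.4-fold. The checkpoint kinase Ttk (1.82 ± 0.091), the motor Kif11 (1.79 ± 0.076) and Bub1b (1.66 ± 0.14) followed, and Mki67 was 2.92-fold higher (1.55 ± 0.088, adjusted p = 1.7e-10). Differences were smaller for Mad2l1 (0.25 ± 0.088), Cdca8 (0.25 ± 0.073), Kif23 (0.26 ± 0.076) and Prc1 (0.33 ± 0.11), which passed at adjusted p between 0.0104 and 0.0322. Pttg1 was 2.03-fold lower in basophils (-1.02 ± 0.12, adjusted p = 2.19e-06), and Ube2c (-0.12 ± 0.097), Ncapg (0.21 ± 0.19), Nuf2 and Kif20a did not pass. By role, all 4 passenger complex, all 4 checkpoint and all 6 spindle motor and microtubule genes were higher, while of the 3 anaphase genes Espl1 was higher and Pttg1 lower.

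Of these calls, 5 were lost when 1 array was left out. Cdca8 lost its call without mast cell replicate 1 (0.20), and Kif23 without fresh basophil replicate 3 or mast cell replicate 3 (0.21 to 0.23). Mad2l1 (0.22 to 0.24) and Prc1 (0.28 to 0.34) lost theirs without fresh basophil replicate 2 or 3 or mast cell replicate 1 or 2, and so did Cdk1 (0.33 to 0.42), which is at background. Mast cells had lower sums than fresh basophils for the neutrophil precursor (6460 to 7810), macrophage (318 to 373) and eosinophil lists (313 to 376), and a higher sum for the stem and progenitor list (32100 to 35900). Cd34 made up most of that last sum, at 28630 ± 2030 (SD, n = 3). Of the 8 stem and progenitor markers, 2 were higher and 4 lower in fresh basophils, beside 20.7% and 24.7% of all genes. Hoxa9 read 0.7593 ± 2.93 in mast cells against 167.7 ± 12.3 in fresh basophils. In mast cells C1qa, C1qb, Mrc1 and Csf1r of the macrophage list and Siglecf of the eosinophil list were at background. Which cells carried these markers, and whether they bear on the members' difference, was not tested.

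Basophils and mast cells that had both been in culture were compared next, and here the direction was opposite. The basophils were isolated, held for 5 days and carried RosaYFP/creER, while the mast cells grew out of marrow during 4 weeks. Cell type cannot be told apart from these differences. In untreated wild type basophils 37 of the 45 members were lower than in mast cells and 0 were higher, beside 25.2% of all genes lower and 19.1% higher. At an unadjusted p under 0.05 the comparison held 40 members. The median log2 fold change was -1.41, against -0.05 over all genes, and 33 members were at least 2-fold lower. Prc1 was 4.31-fold lower (-2.11 ± 0.11, adjusted p = 8.31e-11), Nek2 3.93-fold (-1.97 ± 0.14) and Ccnb2, cyclin B2, 3.72-fold (-1.90 ± 0.13). Incenp (-0.50 ± 0.081) and Smc4 (-0.60 ± 0.11) had the smallest called differences. Pttg1 (0.01 ± 0.12), Kif23 (-0.04 ± 0.076) and Cdc25b (-0.38 ± 0.17) did not pass the test, but the other Pttg1 probe did, at 0.61 (adjusted p = 0.00329). This comparison shares the mast cells with the previous one and the untreated wild type cells with the one before it, so the 3 are not independent.

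The untreated genotypes were compared to see what preceded the drug. In untreated floxed basophils, 35 of the 45 members were higher than in untreated wild type and 0 were lower, beside 10.0% of all genes higher and 8.42% lower. The unadjusted p was under 0.05 for 39 members. The median log2 fold change was 0.68, against 0.00 over all genes, with 4 members at least 2-fold higher. Those 4 were Ccnb2, at 2.29-fold (1.20 ± 0.13, adjusted p = 5.68e-06), Ttk (1.11 ± 0.091), Kif22 (1.04 ± 0.09) and Cdc25b (1.02 ± 0.17). Mki67 was 1.94-fold higher (0.96 ± 0.088, adjusted p = 8.08e-07) and Plk1 1.74-fold (0.80 ± 0.11, adjusted p = 4.64e-05). All 4 checkpoint genes, all 4 passenger complex genes and all 3 kinases were higher. Ube2c (0.18 ± 0.097), Pttg1 (0.06 ± 0.12), Cenpe (0.69 ± 0.26) and Kif23 (-0.01 ± 0.076) did not pass, and the other 6 that did not pass were at background in both groups. The call of Foxm1 (0.48 ± 0.13) was lost without untreated wild type replicate 1 or untreated floxed replicate 2, and that of Smc4 (0.37 ± 0.11) in 4 of 6 such runs (untreated wild type replicates 1 and 2, untreated floxed replicates 2 and 3).

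With the drug, 30 of the 45 members were higher in floxed than in wild type basophils and 1 was lower, beside 18.5% and 16.5% of all genes. The median log2 fold change was 0.56, against 0.00 over all genes. Cenpe was 2.2-fold higher (1.14 ± 0.26, adjusted p = 0.00302), but its treated wild type replicate 2 read 10.7, below background, and without that array the difference was 0.72. Next were Spc25, at 1.96-fold (0.97 ± 0.11, adjusted p = 2.07e-06), Foxm1 1.94-fold (0.96 ± 0.13, adjusted p = 1.5e-05) and Plk1 1.9-fold (0.93 ± 0.11, adjusted p = 3.25e-06). Birc5 (0.81 ± 0.093) and Mki67 (0.78 ± 0.088) were also higher. All 4 checkpoint genes were higher, from 0.40 ± 0.14 for Bub1b to 0.78 ± 0.091 for Ttk, as were 5 of the 6 mitotic entry genes. In the passenger complex only Birc5 was higher: Incenp was 1.2-fold lower (-0.26 ± 0.081, adjusted p = 0.0205), and Aurkb (0.09 ± 0.078) and Cdca8 (0.16 ± 0.073) did not pass. Ube2c (0.01 ± 0.097) and Anln (-0.01 ± 0.091) were nearest to 0. Of these calls, 5 were lost when an array was left out. Incenp lost its call without treated wild type replicate 1 or 3 or treated floxed replicate 2 (-0.25 to -0.23), and Top2a without replicate 3 of either group (0.22 to 0.32). Bub1b lost it without treated wild type replicate 1 or 2 or treated floxed replicate 1 (0.26 to 0.35), Kif2c without treated wild type replicate 1 or treated floxed replicate 3 (0.23 to 0.28), and Ndc80 in all 6 runs (0.34 to 0.43).

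Marker lists of other cell types differed between the genotypes as well, and a list's summed level follows its brightest probes. Of all genes 10.0% were higher and 8.42% lower in untreated floxed cells, and 18.5% and 16.5% with both genotypes treated. In lists this short, a count of 1 or 2 is not set apart from these shares. Of 7 macrophage markers, 6 were lower and 1 higher in untreated floxed than in untreated wild type cells (median -1.78), and with both genotypes treated 7 of 7 were lower (median -1.59). Their sums were 10100 to 11200 in untreated and 9810 to 10800 in treated wild type, 7170 to 8580 in untreated floxed and 3520 to 3780 in treated floxed cells. Of 10 neutrophil precursor markers, 4 were lower and 0 higher in untreated floxed cells (median -0.17), and 8 lower and 1 higher in treated floxed cells (median -2.25), among them Mpo (-3.72 ± 0.089) and Prtn3 (-2.87 ± 0.12). Their sum was 14000 to 16500 in untreated and 16100 to 19100 in treated floxed cells, against 20400 to 21400 in untreated and 19900 to 21400 in treated wild type, but Ctsg alone gave 15700 ± 1650 (SD, n = 3) in treated floxed cells, where Elane and S100a8 were at background. Of 8 stem and progenitor markers, 2 were higher and 1 lower in untreated floxed cells (median 0.18), and 6 higher and 0 lower in treated floxed cells (median 0.56). Their sum was 3770 to 4040 in untreated and 3940 to 4040 in treated wild type cells, against 7060 to 7980 and 9280 to 10400 in the floxed groups. Cd34 made up most of this difference, at 1898 ± 76.8 in untreated and 2536 ± 43.1 in treated wild type against 5182 ± 389 and 6674 ± 525 (SD, n = 3) in the floxed groups, while Flt3 and Erg were at background in untreated floxed cells and Flt3 in treated floxed cells. Of 10 mast cell markers, 1 was higher and 5 lower in untreated floxed cells, and 6 higher and 0 lower in treated floxed cells. The mast cell sum was 142000 to 148000 in treated floxed cells, 92100 to 93300 in untreated floxed, 93600 to 96200 in treated and 88200 to 93500 in untreated wild type, with Tpsab1 and Mrgprb2 at background in all of them. Cpa3, which is on the basophil list too, gave most of this sum in all but the treated floxed cells. Of 4 megakaryocyte markers, 3 were lower in untreated and 2 in treated floxed cells and 0 higher in either, with Itga2b at background throughout. Of 4 eosinophil markers, 1 was higher and 1 lower in untreated floxed cells, and 3 higher and 1 lower in treated floxed cells. With the drug Prg2 gave 1.76 ± 0.089 and Siglecf -1.47 ± 0.11. Their sum was 7360 to 8390 in untreated and 10700 to 11000 in treated floxed cells. In untreated wild type it was 4210 to 4340 and in treated wild type 3310 to 3580. Whether other cells or the basophils themselves carried these markers, and their part in the members' difference, was not tested.

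**Figure D3:**
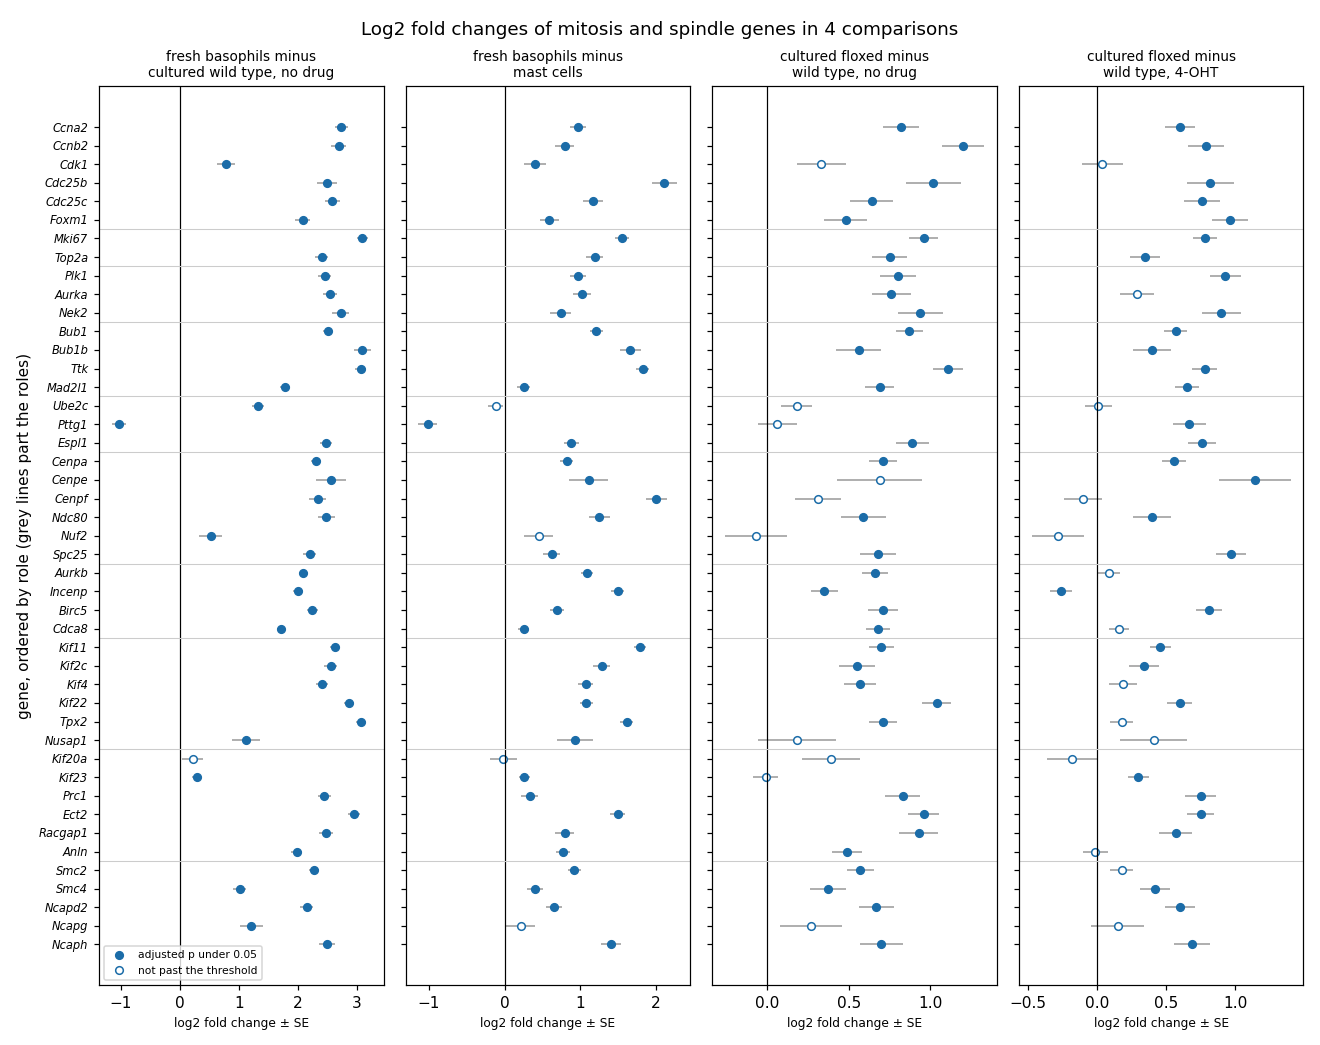
Log2 fold change ± SE (horizontal axis, scale differs by panel) of the 45 members, ordered by role, in 4 comparisons, with filled points for adjusted p under 0.05. Nearly all points lie right of 0 in fresh against cultured basophils (43 of 45 called higher), with Pttg1 at -1.03, and the 2 genotype panels show 35 and 30 members higher in floxed cells.

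Treated floxed basophils, which like mast cells read little Cebpa, were compared with mast cells. Here cell type coincides with the drug, RosaYFP/creER and the kind and length of culture. The members remained below the mast cell level: 35 of the 45 were lower and 1 higher, beside 22.2% and 17.9% of all genes. The median log2 fold change was -0.73, against -0.05 over all genes. Prc1 (-1.62 ± 0.11), Ccna2 (-1.48 ± 0.11) and Foxm1 (-1.44 ± 0.13) differed most, and Ccna2 was 2.78-fold lower (adjusted p = 1.18e-08). Top2a was 1.31-fold lower (-0.39 ± 0.11, adjusted p = 0.0074), and Incenp (-0.15 ± 0.081) and Pttg1 (0.08 ± 0.12) did not pass. Kif23 was the member that was higher, by 1.25-fold (0.32 ± 0.076, adjusted p = 0.00274).

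**Figure D4:**
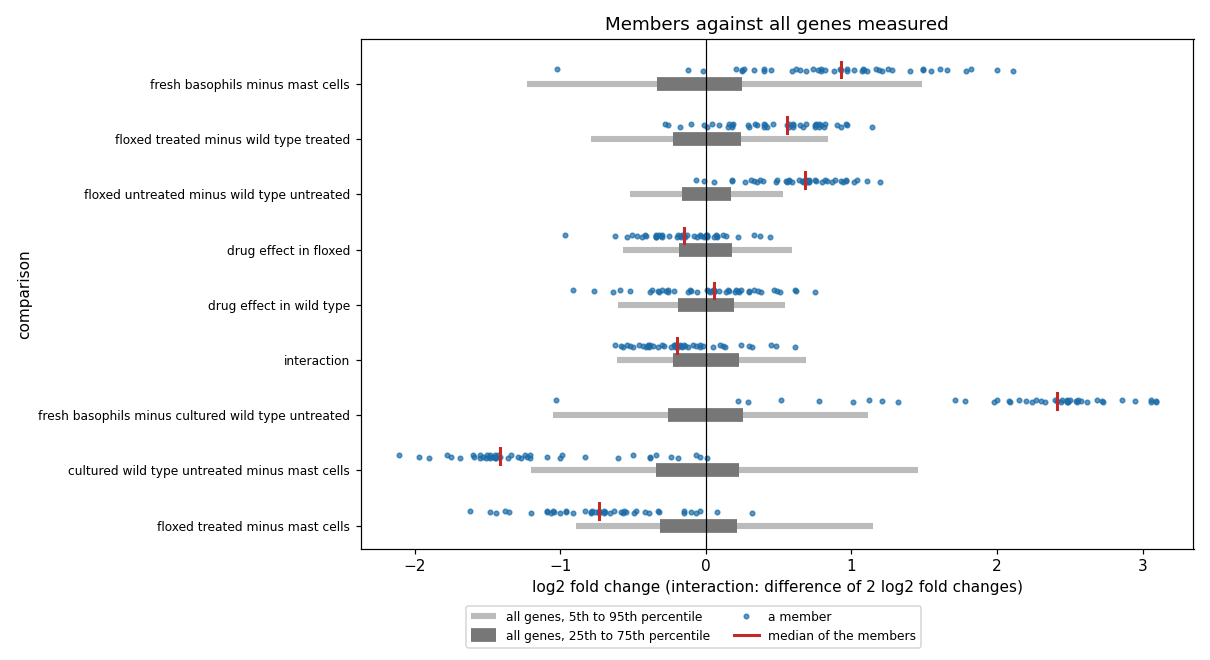
Log2 fold changes of the 45 members (points, median as a red bar) in 9 comparisons, above the spread of all 19084 genes (grey bars). The members' median is 2.41 in fresh against cultured wild type basophils and -1.41 in cultured wild type basophils against mast cells, and is -0.15 and 0.06 for the drug in floxed and wild type cells. Comparisons that share a group are not independent.

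The differences with the drug were small. The drug activates creER in both genotypes, so the drug and the active recombinase cannot be told apart. In wild type cells, which have no floxed allele, 7 of the 45 members were higher with 4-hydroxytamoxifen and 5 lower, beside 12.5% and 11.8% of all genes, so these shares were near the background, with a median of 0.06. The 7 higher were Cdca8 (0.75 ± 0.073), Incenp (0.62 ± 0.081), Ube2c (0.61 ± 0.097), Smc2 (0.51 ± 0.082), Aurkb (0.49 ± 0.078), Top2a (0.47 ± 0.11) and Anln (0.30 ± 0.091). Of the 4 passenger complex genes, 3 were among them, and Cdca8 was 1.68-fold higher (adjusted p = 2.51e-06). The 5 lower were Foxm1 (-0.91 ± 0.13), Cdc25b (-0.77 ± 0.17), Plk1 (-0.64 ± 0.11), Pttg1 (-0.59 ± 0.12) and Smc4 (-0.52 ± 0.11). Foxm1 was 1.88-fold lower (adjusted p = 6.18e-05). Without normalization between arrays 11 members were lower and the median was -0.13, against -0.10 over all genes. The call of Anln was lost without treated wild type replicate 1 or any 1 of the 3 untreated wild type arrays (0.26 to 0.31).

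In floxed cells 4 members were higher with the drug and 13 lower, beside 11.3% and 11.1% of all genes, with a median of -0.15. Cdc25b was 1.96-fold lower (-0.97 ± 0.17, adjusted p = 0.000381), Ccna2 1.45-fold (-0.54 ± 0.11, adjusted p = 0.00198) and Racgap1 1.54-fold (-0.62 ± 0.12, adjusted p = 0.00085). The other Racgap1 probe gave -0.23 here and did not pass (adjusted p = 0.206). Plk1 (-0.51 ± 0.11), Smc4 (-0.47 ± 0.11) and Foxm1 (-0.44 ± 0.13) were lower here as in wild type cells. The other 7 lower members were Ttk, Ndc80, Kif11, Kif4, Kif22, Tpx2 and Prc1, at -0.42 to -0.30, and of the 6 spindle motor and microtubule genes 4 were lower. The 4 higher were Ube2c (0.44 ± 0.097), Kif23 (0.37 ± 0.076), Spc25 (0.33 ± 0.11) and Cdca8 (0.22 ± 0.073). Of these calls, 7 were lost when an array was left out, those of Spc25 and Ndc80 in all 6 runs. Cdca8 lost its call in every run except that without untreated floxed replicate 2, and Prc1 without replicate 1 or 2 of either group. Foxm1 lost it without replicate 2 of either group, Kif4 without replicate 1 of either group, and Tpx2 without treated floxed replicate 1 or untreated floxed replicate 2. Without normalization between arrays 2 members were higher and 8 lower. The count of higher members was 2 in 5 of the 6 runs and 3 without untreated floxed replicate 2.

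The difference between both drug effects was tested directly, and passed for 1 member in the higher and 7 in the lower direction, beside 7.33% and 7.28% of all genes. The median difference was -0.20, against -0.01 over all genes. Lower in floxed relative to wild type were Incenp (-0.62 ± 0.12, adjusted p = 0.00165), Aurkb (-0.57 ± 0.11, adjusted p = 0.00221), Tpx2 (-0.54 ± 0.12, adjusted p = 0.00584) and Cdca8 (-0.52 ± 0.10, adjusted p = 0.0025). Also lower were Anln (-0.50 ± 0.13), Kif22 (-0.43 ± 0.13) and Smc2 (-0.39 ± 0.12). Incenp, Aurkb and Cdca8 rose with the drug in wild type cells, while in floxed cells Incenp (0.00 ± 0.081) and Aurkb (-0.08 ± 0.078) did not pass. Pttg1 was the member with a positive difference (0.61 ± 0.17, adjusted p = 0.0272), since it fell in wild type cells and read 0.01 ± 0.12 in floxed cells. Its other probe gave 0.08 (adjusted p = 0.878). Of these 8 calls, 1, that of Aurkb, was made under every alternative that kept the threshold of 0.05 with no limit on fold, and none reached 2-fold. Without normalization between arrays 3 members were called higher and 1 lower. Calls of Pttg1, Kif22 and Smc2 were lost without 1 array, in 6, 8 and 9 of 12 runs, with values of 0.49 to 0.58, -0.44 to -0.35 and -0.40 to -0.35. Pttg1 lost its call without treated wild type replicate 1 or 2, untreated wild type replicate 2 or 3, treated floxed replicate 3 or untreated floxed replicate 2. Kif22 and Smc2 both lost theirs without treated wild type replicate 2 or 3, untreated wild type replicate 2, any treated floxed replicate, or untreated floxed replicate 1 or 3, and Smc2 also without untreated wild type replicate 3.

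**Figure D5:**
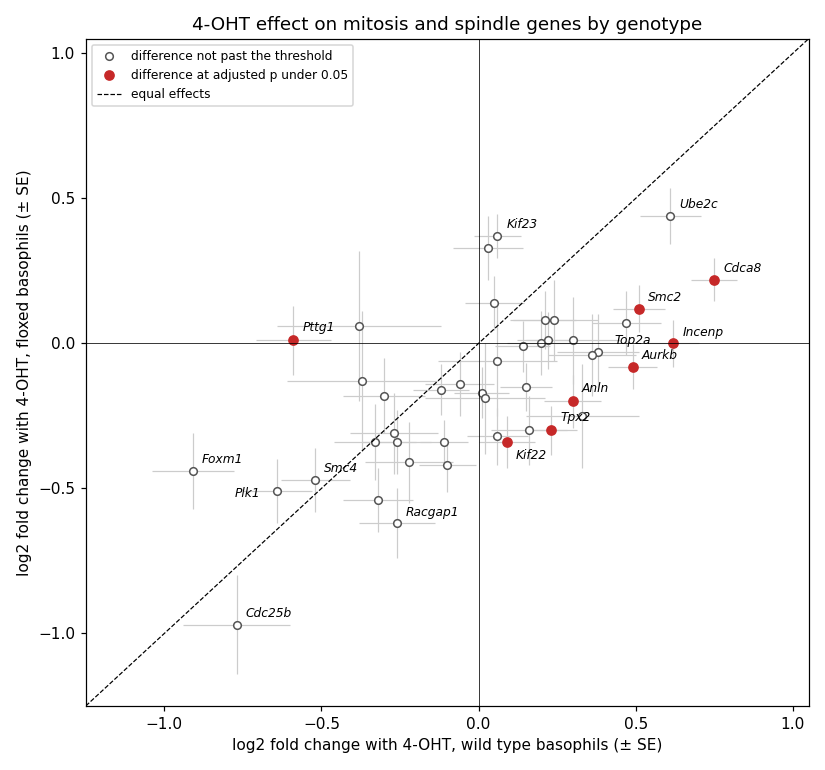
Log2 fold change with 4-hydroxytamoxifen in wild type (horizontal) and floxed basophils (vertical), ± SE, for the 45 members; the dashed line marks equal effects. Filled points are the 8 members whose effects differed at adjusted p under 0.05, with 7 below the line and Pttg1 above it; both axes share the scale.

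Some members had more than 1 probe: 8 members had 9 other probes, 7 of them with a mean of at least 30. In fresh against cultured wild type basophils those of Mki67 (3.02 beside 3.09), Bub1 (2.10 beside 2.50), Ttk (2.61 beside 3.06), Kif4 (1.71 beside 2.41) and Racgap1 (2.34 beside 2.48) gave the same direction. In fresh basophils against mast cells a second Birc5 probe gave 0.06 (adjusted p = 0.696) beside 0.69. In the drug comparison of floxed cells that Birc5 probe gave 0.83 (adjusted p = 4.75e-06) beside 0.14, and its difference between the drug effects was 0.61 (adjusted p = 0.0049) beside 0.10, so survivin is uncertain in these comparisons. The second Racgap1 probe gave 0.02 (adjusted p = 0.928) beside 0.57 in treated floxed relative to treated wild type cells. The other Pttg1 probe gave 0.14 (adjusted p = 0.545) beside 0.67 in that comparison, and -0.39 (adjusted p = 0.0778) beside -0.59 with the drug in wild type cells. For Kif4 the other probe gave 0.11 beside -0.32 with the drug in floxed cells. The dim second Tpx2 probe gave 0.27 (adjusted p = 0.603) beside -0.54 for the difference between the drug effects. With the drug, the second Bub1 probe was lower in floxed (-0.61) and wild type cells (-0.62), and the second Mki67 probe too (-0.30 and -0.33), where the probes used did not pass.

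Other genes of the cell cycle, in lists chosen by function, were counted the same way, 167 of 181 of them measured. The shares of all genes to set beside these counts are those given above for each comparison. Of 66 other mitotic genes, 59 were higher and 2 lower in fresh than in untreated wild type basophils (median 1.80), with Pimreg (3.16 ± 0.087) and the kinesin Kif15 (2.93 ± 0.17) at the front. Against mast cells 52 were higher in fresh basophils and 2 lower (median 0.75), and in untreated wild type basophils 0 were higher and 55 lower than in mast cells (median -1.0). In treated floxed relative to treated wild type cells 44 were higher and 2 lower (median 0.53), and without the drug 45 and 0 (median 0.52). Of 40 DNA replication genes, 39 were higher and 1 lower in fresh than in untreated wild type basophils (median 1.66), among them the replication kinase Cdc7 (3.19 ± 0.10) and Uhrf1 (2.68 ± 0.089). In treated floxed relative to treated wild type cells 25 replication genes were higher and 3 lower (median 0.43), and without the drug 29 and 0 (median 0.51). Between the treated genotypes the polymerase genes Pola1 (1.44 ± 0.21) and Pole (1.33 ± 0.14) were at the front.

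Among the factors that control these genes, 12 of 17 E2F, B-Myb and MuvB genes were higher and 1 lower in fresh than in untreated wild type basophils. Of all genes 20.0% were higher and 19.6% lower. The repressors E2f8 (2.52 ± 0.16) and E2f7 (2.27 ± 0.098) led this list. In treated floxed relative to treated wild type cells 7 were higher and 3 lower, beside 18.5% and 16.5% of all genes, so the lower count is near that share. E2f2 changed most, at -1.28 ± 0.096, followed by E2f6 (0.82 ± 0.088). Of 10 Cdk inhibitor and pocket protein genes, 3 were lower and 1 higher in fresh than in untreated wild type basophils beside 19.6% and 20.0% of all genes, and with so few genes the list is not set apart from them. Cdkn1a (p21) stood at -1.60 ± 0.084 (adjusted p = 9.21e-11) and Cdkn2b at -1.50 ± 0.095. In treated floxed relative to treated wild type cells 2 of the 10 were higher, Rb1 (1.14 ± 0.086) and Rbl1 (0.63 ± 0.11), and 5 lower, beside 18.5% and 16.5% of all genes. Without the drug 2 were higher and 2 lower, beside 10.0% and 8.42% of all genes. Cdkn1b (-0.83 ± 0.095) and Rb1 (0.69 ± 0.086) changed most. Of 8 genes listed as G1 cyclins and kinases, a list that also held Myc, 2 were lower in treated floxed than in treated wild type cells. They were Ccnd1 (-1.51 ± 0.11) and Myc (-0.94 ± 0.13), and 0 were higher. Of all genes 16.5% were lower and 18.5% higher, and this list too is not set apart. In untreated floxed relative to untreated wild type cells 2 of these genes were higher and 1 lower, beside 10.0% and 8.42% of all genes. Ccnd1 was at -1.08 ± 0.11 and Cdk6 at 0.67 ± 0.15. The cohesin list was mixed. In treated floxed relative to treated wild type cells 2 of 12 were higher and 6 lower, beside 18.5% and 16.5% of all genes. In fresh against untreated wild type basophils 8 were higher and 3 lower, beside 20.0% and 19.6% of all genes. Of 14 anaphase promoting complex subunits and partners, 9 were higher and 0 lower in fresh against untreated wild type basophils, beside the same shares of all genes. Ube2s (1.31 ± 0.11) was first.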

How the data were processed

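The authors deposited 1 intensity per probe and array (single dye, mouse), and any normalization before deposit is unstated in the sources used here. Here the 18 arrays were quantile normalized, 16 was added, log2 was taken, and 1 mean per group was fitted to all 26423 probes with limma 3.58.1 (R 4.3.3). Adjusted p-values are Benjamini-Hochberg over all probes, with a threshold of 0.05. An intensity of 30 was taken as background, set once the values had been seen. A fold against a group at background is given as a lower bound. Arrays carry no counts, so the number of arrays, 3 a group, limits the precision.

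The members and the lists were chosen with earlier results of these data known. Per-array values are given for 25 members: by role the 2 brightest, and the 2 largest and 2 smallest changes in 3 comparisons (fresh basophils against mast cells and against cultured wild type, and treated floxed against treated wild type). Genes named from the other cell cycle lists are among the 2 largest called changes of a comparison, but not every list and comparison has genes named. Marker genes are named also outside that rule. The fit was tested on simulated data. Alternatives were 3 other scalings, an offset of 50, a filter on dim probes, an intensity trend, separate fits, the mean of all probes, a replicate block, a 2-fold limit and leaving out each array.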

Additional observations from a re-analysis of the deposited data

Results flagged for a closer look

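For 8 of the 45 members the response to 4-hydroxytamoxifen differed between floxed and wild type basophils. The test was limma's for that difference, with Benjamini-Hochberg adjustment over all probes. The difference was positive for 1 member and negative for 7, beside 7.33% and 7.28% of all genes. The values are the log2 change with the drug in floxed minus that in wild type cells. It was -0.62 for Incenp (adjusted p = 0.00165), -0.57 for Aurkb (0.00221), -0.54 for Tpx2 (0.00584) and -0.52 for Cdca8 (0.0025). For Anln it was -0.50 (0.0168), for Kif22 -0.43 (0.0334), for Smc2 -0.39 (0.0354) and for Pttg1 0.61 (0.0272).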

How the results depend on the processing

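Under every alternative that kept the 0.05 threshold with no limit on fold, the calls held for 34 of 41 members in fresh basophils against mast cells, 42 of 44 against cultured wild type, and 37 of 37 in cultured wild type basophils against mast cells. The 2-fold limit is left out of these counts and given below. The numbers were 30 of 36 in treated floxed basophils against mast cells, 30 of 35 for the untreated genotypes and 23 of 31 for the treated ones. For the drug they were 7 of 17 in floxed and 9 of 12 in wild type cells, and 1 of 8 for the difference between the drug effects. The arrays' replicate numbers did not pair them (correlations of -0.39 to 0.14), and with the replicate block 2 members were higher with the drug in floxed cells. Counting only members above background in a compared group, an alternative chosen after seeing the data, moved no count by more than 1.5 times.

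With median scaling the treated genotypes had 0 members lower, the drug in floxed cells 0 higher, the difference between drug effects 0 higher, and treated floxed against mast cells 0 higher. The medians were then 0.86 for the untreated genotypes (0.08 over all genes) and 0.15 for the drug in wild type cells (0.07 over all genes). They were -0.41 for the difference between drug effects (-0.14 over all genes) and 2.64 for fresh against cultured basophils (0.03 over all genes). Without normalization between arrays the median over all genes was 0.19 in fresh basophils against mast cells, -0.10 for the drug in wild type cells, 0.13 for the difference between drug effects and 0.11 in cultured basophils against mast cells. The members' medians were then 1.46, -0.13, -0.03 and -1.11, with 2.70 for fresh against cultured basophils and -0.48 for treated floxed against mast cells. The counts were 0 lower for the treated genotypes, 2 higher and 8 lower for the drug in floxed cells, 11 lower for it in wild type cells, 3 higher and 1 lower for the difference, and 1 higher in cultured basophils against mast cells. Also without normalization, Ube2c read 0.42 in fresh basophils against mast cells, and Kif23 read -0.25 with the drug in wild type cells and 0.27 in cultured basophils against mast cells. Scaling on probes above background gave 0.46 for the treated genotypes, -1.32 for cultured basophils and 0 higher for treated floxed cells against mast cells, and 2 higher with the drug in floxed cells.

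An offset of 50 gave medians of 0.44 and 0.58 for the treated and untreated genotypes, 2.12 for fresh against cultured basophils, and -1.15 and -0.62 for cultured and treated floxed basophils against mast cells, with 2 members higher for the difference between drug effects. That last count was also 2 without the dimmest 30% of probes and with an intensity trend. It was 0 with the mean of all probes of a gene, which gave medians of 0.43 for the treated genotypes and -1.27 for cultured basophils against mast cells, and 0.08 for Tpx2 with the drug in floxed cells. With only the groups compared, it was 0, with 0 lower for the treated genotypes and 2 higher with the drug in floxed cells. At a 2-fold limit 20 members were higher in fresh basophils than in mast cells, 4 in untreated and 1 in treated floxed cells (0 lower), 11 lower and 0 higher in treated floxed cells against mast cells, and 0 either way for the drug and for the difference. Leaving out each array gave 0 to 1 lower for the treated genotypes, 2 to 3 higher with the drug in floxed cells and 0 to 2 higher for the difference between drug effects. The cause of these shifts was not tested.

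Members near the limit of 30, such as Cenpe in wild type cells, are limited by signal over background.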
